A study of Mus musculus with 12 samples.

Results

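Ccnd2, Cdc45 and a pair of non-coding genes that lie over cell cycle genes, Gm43126 (antisense to Ccnd2) and E230016M11Rik (over Gadd45a), were followed in C2C12 cells, a mouse myoblast line. The 4 genes were taken by symbol from the authors' gene tables, which gave 4 of the 27942 genes analysed, and all 4 were among the 1737 genes tested. Cells at 80% density, grown with 10% fetal bovine serum, were moved to medium with 2% horse serum and kept in it for 7 days, which lets myoblasts leave the cell cycle and fuse into myotubes. The control group was untreated, and the OI group received 25 µmol/L 4-octyl itaconate, an ester of itaconate that enters cells. Each group had 3 RNA-seq libraries, and the comparison asks how expression of these genes differed with OI. Separate cultures are not named in the labels, and p-values therefore measure only how far these libraries differ among themselves, possibly for technical reasons. A second set of 3 control and 3 OI samples was not analysed here.

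Myoblasts must stop dividing before they fuse. D-type cyclins such as cyclin D2, the product of Ccnd2, activate CDK4 and CDK6, which phosphorylate the retinoblastoma protein and release E2F factors at the passage from G1 to S phase. CDC45 joins the MCM ring and the GINS complex to form the helicase that unwinds DNA at replication forks, so its gene is typically active in dividing cells. GADD45A is a stress protein, induced by p53 among others, that can hold cells before mitosis and takes part in DNA repair. Antisense and overlapping non-coding genes share genome sequence with such genes, and their measured values can include reads from the partner where reads are counted without strand. Gadd45a itself was not analysed here, and no Gadd45a level was read from E230016M11Rik, which is therefore described under its own name.

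The genes differ in how much of their sequence is their own. Positions in the tables are on mm10 and were identical to GENCODE M21 for all 4 genes. Gm43126 (ENSMUSG00000107379) lies on the + strand at chr6:127122966-127126155 and has 2 exons of 429 bases in all. Its second exon, 372 bases at chr6:127125784-127126155, lies wholly within annotated UTR of Ccnd2 on the opposite strand, so 86.7% of Gm43126 shares its positions with Ccnd2 exons. The 57 bases of its first exon, at chr6:127122966-127123022, lie in no Ccnd2 exon. They are shown in lower case throughout because no base is shared:
Gm43126 first exon: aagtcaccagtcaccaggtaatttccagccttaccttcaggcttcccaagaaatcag

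E230016M11Rik (ENSMUSG00000087231) lies on the + strand at chr6:67036599-67080654 and has 4 annotated transcripts. All but E230016M11Rik-204 share bases with exons of Gadd45a, which is on the - strand. Over all its transcripts the gene shares 337 of its 3841 exonic bases with Gadd45a, or 8.77%. E230016M11Rik-203 alone shares 281 of its 2473 bases. The first exon of E230016M11Rik-203, whose 2473 bases are the gene length in the tables, is 281 bases at chr6:67036655-67036935 (+ strand). All 281 bases lie in an annotated Gadd45a exon of some transcript. Of these, 238 are the coding bases of exon 3 of the 4 exons of a Gadd45a coding transcript, read on the opposite strand, and they are shown in capitals:
E230016M11Rik-203 first exon: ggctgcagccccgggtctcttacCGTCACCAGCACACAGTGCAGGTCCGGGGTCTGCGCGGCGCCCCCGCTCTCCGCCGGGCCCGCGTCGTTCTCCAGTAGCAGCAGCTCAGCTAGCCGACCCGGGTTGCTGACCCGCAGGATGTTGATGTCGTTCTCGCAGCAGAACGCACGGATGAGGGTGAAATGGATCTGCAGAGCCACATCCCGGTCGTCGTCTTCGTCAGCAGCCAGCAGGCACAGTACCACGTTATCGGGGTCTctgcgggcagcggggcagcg

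**Figure D1:**
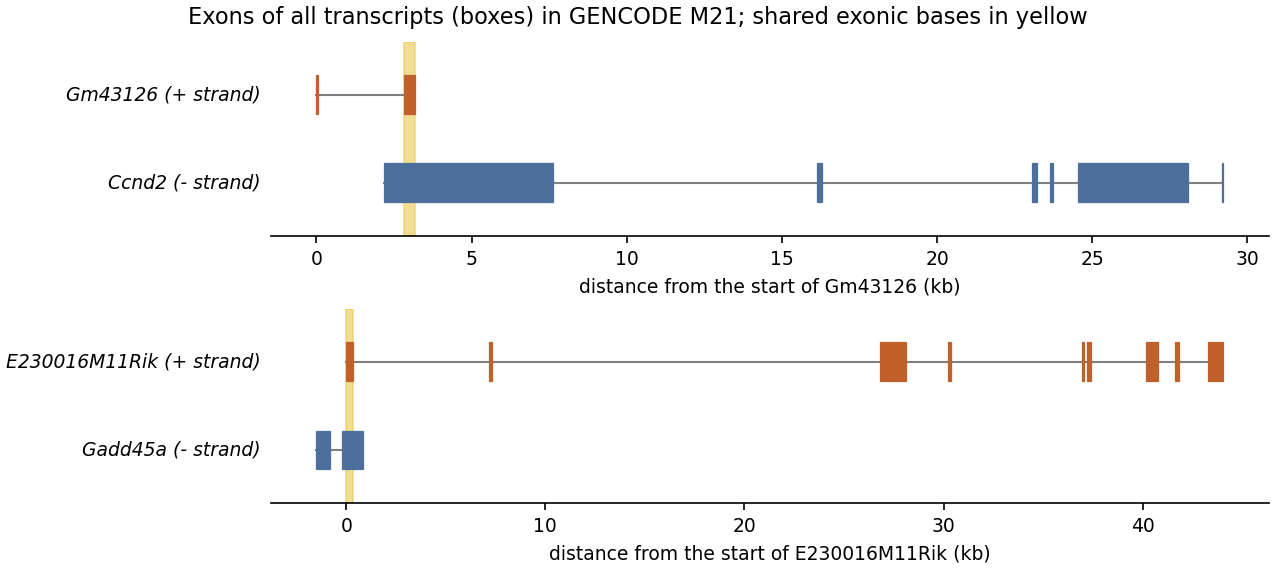
Exons of all annotated transcripts (boxes) along the distance in kb from the start of Gm43126 (top) and of E230016M11Rik (bottom), with the partner gene on the opposite strand below each and shared exonic bases in yellow. The yellow band takes up the whole second exon of Gm43126 but only the first exon of E230016M11Rik, whose other exons extend beyond Gadd45a.

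Expression is given in FPKM, fragments scaled to gene length and to library size. A gene entered the test if 3 or more of the 6 libraries had an FPKM of at least 1, and limma was run on log2(FPKM + 1) with Benjamini-Hochberg adjustment across the genes tested. Of the 1737 genes tested, 48 passed an adjusted p of 0.05, or 2.76%, and 20 of them, or 1.15%, were higher in OI. None of the 4 genes passed in this limma fit, and none passed with limma voom on recovered read numbers. At an unadjusted p under 0.05 there was 1 of the 4, Ccnd2, beside 309 of all genes tested. Library sizes recovered from the values ranged from 24441000 to 36274000. Control replicate 1 stood apart from the others, with 23.9% of its reads in the genes analysed against 5.25% to 5.77% elsewhere, so results are also given without it. In that library AY036118 was at 70760 FPKM, against 691.5 to 2450 elsewhere, and this value enters any rescaling to a common sum.

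Ccnd2 was the most abundant of the 4 genes and was somewhat higher in every OI library than in any control library. It lies on the - strand at chr6:127125162-127152193 (ENSMUSG00000000184), and the tables give it the 6330 bases of its longest transcript, which has 5 exons. Its FPKM was 23.6, 26.0 and 23.9 in control replicates 1 to 3. In OI replicates 1 to 3 it was 29.0, 28.3 and 27.5. The groups did not overlap, with 1.53 FPKM between the highest control and the lowest OI library. Across all genes tested 23.6% had no overlap between the groups in either direction and 11.1% had none with OI higher, so a gap of this kind was common.

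The Ccnd2 mean was 24.5 ± 1.31 FPKM in control and 28.3 ± 0.762 in OI (SD, n = 3 each), a ratio of 1.16. On the log2(FPKM + 1) scale the difference was 0.20 (SE 0.07, 95% interval 0.03 to 0.37), with an adjusted p of 0.228 by limma, so the gene did not pass. The exact two-sided permutation test over the 20 assignments of the libraries to groups gave p = 0.1, the smallest that 3 against 3 libraries allow. Without control replicate 1 the difference was 0.18 with an adjusted p of 0.395 by limma. Between 3648 and 6507 reads lay behind each Ccnd2 value, for a counting error of 1.24% to 1.66%, below the spread of 5.35% among control libraries and 2.69% among OI libraries.

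Gm43126 followed Ccnd2 closely in level. Its FPKM was 20.7, 23.5 and 22.5 in control replicates 1 to 3 and 26.9, 26.5 and 22.8 in OI replicates 1 to 3. OI replicates 1 and 2 were above all control libraries, while OI replicate 3 was below control replicate 2, so the groups overlapped. The mean was 22.3 ± 1.44 FPKM in control and 25.4 ± 2.27 in OI (SD, n = 3 each). The log2 difference was 0.18 (SE 0.09, 95% interval -0.04 to 0.41), with an adjusted p of 0.378 by limma and p = 0.2 in the exact permutation test. Without control replicate 1 it was 0.13, with an adjusted p of 0.617 by limma.

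In each of the 6 libraries Gm43126 was just below Ccnd2 in FPKM. The ratio of Gm43126 to Ccnd2 was 0.878, 0.906 and 0.944 in control replicates 1 to 3 and 0.925, 0.937 and 0.828 in OI replicates 1 to 3. The ratio thus varied within each group by more than the group means, 0.909 and 0.897, were apart. The counts behind Gm43126 were whole numbers: 217, 308 and 290 reads in control replicates 1 to 3 and 370, 413 and 251 in OI replicates 1 to 3. They were set beside what the Ccnd2 reads would place on the 372 shared bases if spread evenly over its 6330 bases, which hold 5.88% of its length. That even share came to 214, 295 and 266 reads in control and 347, 382 and 263 in OI. The Gm43126 reads were between 95.5% and 109% of it, and the even share lay within the 95% exact Poisson interval of the Gm43126 reads in each library (counting error only). The sources used here do not give the strand setting of the counting, and without strand, reads of Gm43126 and of Ccnd2 on these bases cannot be told apart.

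**Figure D2:**
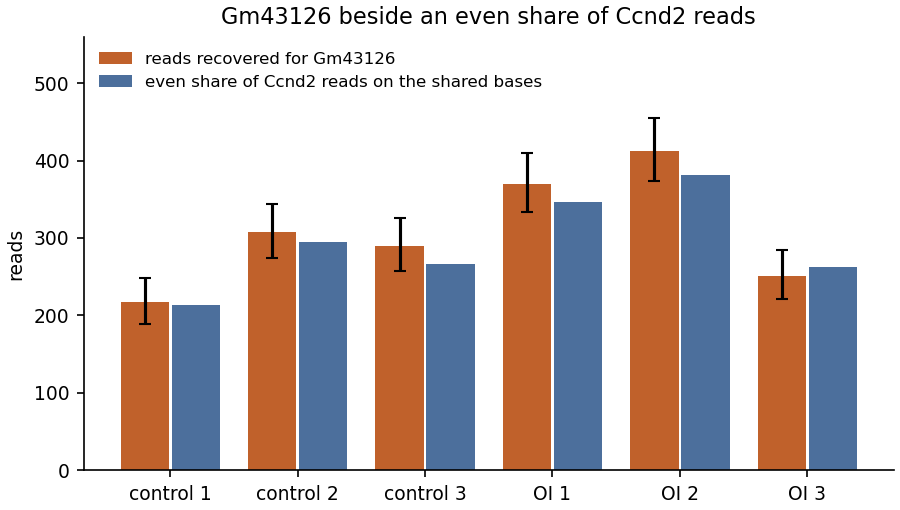
Reads recovered for Gm43126 in each library (with 95% exact Poisson intervals, counting error only) beside the reads that Ccnd2 would place on the shared bases if its reads were spread evenly. Both bars are read numbers, so their rise and fall from library to library also follows library size. The Gm43126 reads stay between 95.5% and 109% of the even share.

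9330179D12Rik, another antisense gene at Ccnd2, was far lower. It shares 368 exonic bases with Ccnd2, which is 24.8% of its own exonic bases, and had between 0.0419 and 0.167 FPKM in the 6 libraries. These 368 bases were taken over the exons of all annotated Ccnd2 transcripts, 9409 bases in all, and not over the 6330-base transcript alone. Whether they are expressed as part of Ccnd2 was not tested. Within 250 kb of Ccnd2 the tables hold 15 other analysed genes, and 2 of them were tested, Gm43126 and the pseudogene Tpi-rs11. Tpi-rs11 was at 14.1, 10.99 and 12.7 FPKM in control and 11.3, 9.16 and 8.79 in OI, with overlapping groups and an adjusted p of 0.255 by limma. Fgf6 and Fgf23, fibroblast growth factor genes 97.0 and 43.8 kb from Ccnd2, were listed at 0 in all 6 libraries.

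Cdc45 was present at a low level that hardly differed between groups. The gene (ENSMUSG00000000028) lies on the - strand at chr16:18780447-18811987, and its tabled length of 2143 bases is that of its longest transcript, which has 20 exons. FPKM was 1.89, 1.83 and 1.73 in control replicates 1 to 3 and 1.99, 1.93 and 1.49 in OI replicates 1 to 3. The highest and the lowest of the 6 values both came from OI libraries, and the groups overlapped. The mean was 1.82 ± 0.0797 FPKM in control and 1.80 ± 0.276 in OI (SD, n = 3 each). The log2 difference was -0.01 (SE 0.10, 95% interval -0.26 to 0.24), with an adjusted p of 0.971 by limma and p = 1.0 in the exact permutation test.

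That interval allows a difference in Cdc45 from -0.26 to 0.24 on the log2(FPKM + 1) scale, which compresses differences of low genes. With 0.1 added to FPKM in place of 1 the interval was -0.39 to 0.35. With voom on recovered reads it was -0.35 to 0.35. About 82 to 150 reads lay behind each Cdc45 value, for a counting error of 8.16% to 11.04% per library. The spread was 4.38% among control libraries, below counting error, and 15.3% among OI libraries. The sign of the difference was not fixed: without control replicate 1 it was 0.01, and without OI replicate 3 it was 0.07. The first 209 bases of Cdc45 are shared with exons of Ufd1 on the opposite strand, or 5.96% of its exonic bases, and Ufd1 was not analysed here. Of 4 analysed neighbours within 250 kb of Cdc45, 3 were listed at 0 in all libraries, and Gm28539 reached at most 0.0671 FPKM.

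E230016M11Rik fell on separate levels, and they did not follow the groups. FPKM was 0.309 in control replicate 1, 0.341 in control replicate 2 and 8.28 in control replicate 3. In OI replicates 1 to 3 it was 7.69, 8.35 and 6.24. Control replicate 3 lay among the OI libraries, and no library lay between 0.341 and 6.24 FPKM. About 19 and 26 reads lay behind the low libraries and about 397 to 749 behind the high ones. Their 95% exact Poisson intervals were 11.4 to 29.7 and 17.0 to 38.1 reads for the low libraries, and 359 to 438 reads for the lowest of the high ones, so counting error did not bridge the levels. The strand setting of the counting is not given here either, and how many of these reads lay on bases shared with Gadd45a was not tested.

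The mean of E230016M11Rik was 2.98 ± 4.59 FPKM in control and 7.43 ± 1.08 in OI (SD, n = 3 each). The log2 difference was 1.73 (SE 0.76, 95% interval -0.11 to 3.56), with an adjusted p of 0.306 by limma and p = 0.3 in the exact permutation test. Control replicate 3 decided that result. Without it the log2 difference was 2.66 with an adjusted p of 0.00156 by limma, and without control replicate 1, which was low, it was 1.25 with an adjusted p of 0.504. The labels give no reason to leave out control replicate 3.

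**Figure D3:**
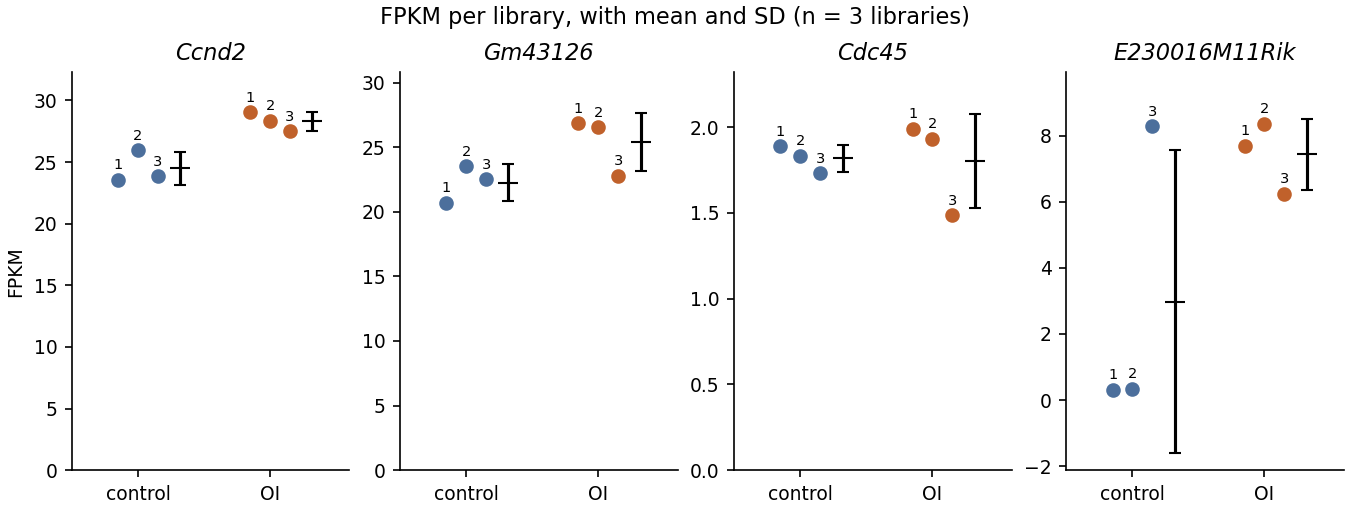
FPKM of the 4 genes in each control and OI library (points, numbered by replicate, each panel on its own linear axis), with the mean and SD of 3 libraries as a bar beside each group. Only Ccnd2 has no overlap between groups, and in E230016M11Rik control replicate 3 lies at 8.28 beside the OI libraries while control replicates 1 and 2 lie at 0.309 and 0.341.

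The 250 bases before the first base of E230016M11Rik, at chr6:67036349-67036598 (+ strand, RefSeq, GRCm38.p6), are shown, a choice made after its split was seen. A link between this sequence and the split was not tested. Of the 4 genes, 2 had an entry in the RefSeq promoter table, E230016M11Rik and Cdc45. These entries run on past the first base, beyond the 250 bases shown. Both strands of each whole entry were searched for 7 motifs: the E2F forms TTTCCCGC, TTTGGCGC, TTTCGCGC and TTTGCCGC, the E-box CACGTG, the antioxidant response element core TGACNNNGC and the AP-1 site TGACTCA. The E230016M11Rik entry held a single match, TGACTCA, in capitals, with its first base at -67 from the start. From -228 onward the bases shown, this match included, also lie in an annotated exon of Gadd45a on the opposite strand. Of 32841 promoter entries searched in the same way, 5.2% held that motif.
E230016M11Rik promoter: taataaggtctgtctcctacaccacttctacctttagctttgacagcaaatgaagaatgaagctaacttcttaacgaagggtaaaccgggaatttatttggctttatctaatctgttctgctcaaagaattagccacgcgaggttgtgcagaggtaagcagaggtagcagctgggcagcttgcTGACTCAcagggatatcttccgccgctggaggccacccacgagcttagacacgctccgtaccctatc

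The Cdc45 entry held none of these motifs. The match in E230016M11Rik is a run of letters in a sequence, and these data do not measure binding there.

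Around E230016M11Rik, 1 of 9 analysed neighbours within 250 kb was tested. This was the pseudogene Gm9794, at 479, 425 and 483 FPKM in control and 502, 399 and 391 in OI, with an adjusted p of 0.706 by limma. It did not share the split of E230016M11Rik. A430010J10Rik, 35.0 kb away, stayed between 0.0567 and 0.282 FPKM. High E230016M11Rik values thus stood beside near-zero values of A430010J10Rik in the same libraries.

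Separate levels were looked for in all genes tested after the split in E230016M11Rik had been seen. A gap of at least 2 on the log2(FPKM + 1) scale with 2 or more libraries on each side was found in 12 of 1737 genes, or 0.691%. In 3 of the 12 the split was that of control against OI. The other 9 split the libraries in other ways, and E230016M11Rik was the only gene low in control replicates 1 and 2 alone. The 12 genes fell into 9 different splits. Control replicate 2 was on the low level in 8 of those 9 genes not split by group, E230016M11Rik among them, and each other library in 2 to 4. Without control replicate 2 the log2 difference of E230016M11Rik was 1.27, with an adjusted p of 0.523 by limma, and the part of this library in the split was not tested further. Of the 12, 10 shared exonic bases with another annotated gene, or 83.3%, beside 52.5% of the 1728 tested genes with annotation. E230016M11Rik, which prompted the search, is among the 10, and whether shared bases play a part in the levels was not tested. Pet117, a protein-coding gene, was at 5.61, 0.0473 and 7.31 FPKM in control and 8.85, 0.0398 and 10.6 in OI, and is named as an example chosen after its values were seen.

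**Figure D4:**
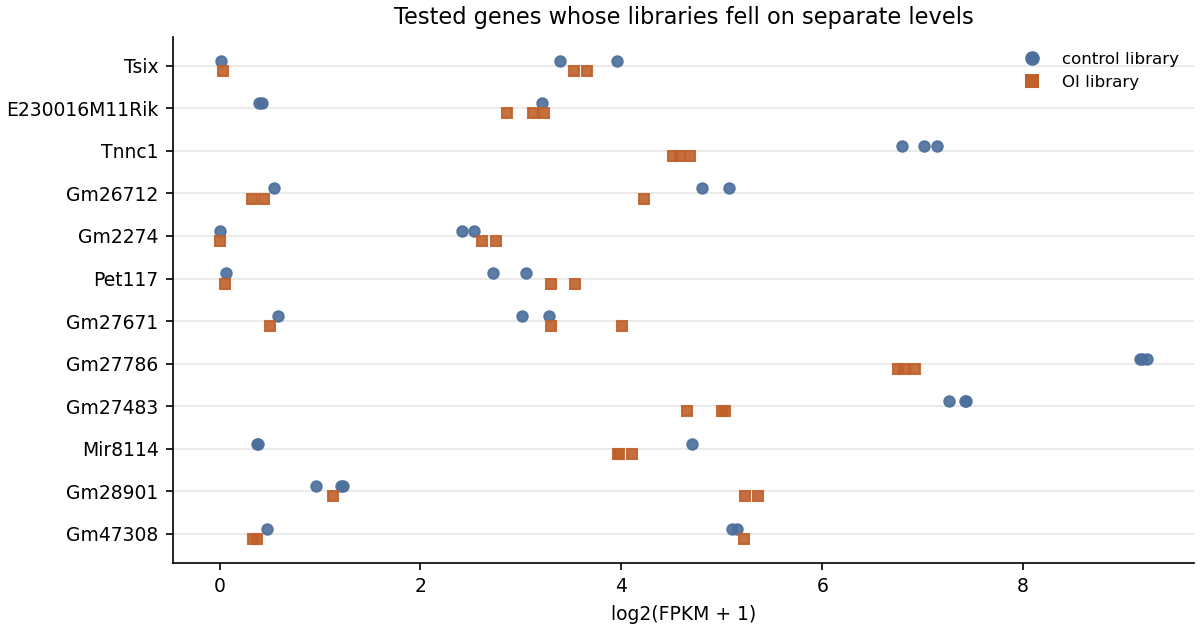
log2(FPKM + 1) in each library (blue circles control, orange squares OI) for the 12 tested genes with a gap of at least 2 between levels. E230016M11Rik has control replicates 1 and 2 on the low level and the other 4 libraries on the high level, whereas in 3 genes the split is that of the groups.

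The genes most like each of the 4 were taken by Pearson's r of log2(FPKM + 1) over the 6 libraries, as a description, since all values share the same libraries. For Ccnd2 they were 4930404A12Rik (r = 0.975), Gm31544 (0.973) and A530084C06Rik (0.969). For Gm43126 they were A230087F16Rik (0.978), AC126028.2 (0.967) and Mir5136 (0.950). For Cdc45 they were 1110046J04Rik (0.964), AV039307 (0.964) and Srp54 (0.961), a component of the signal recognition particle. For E230016M11Rik they were Gm10075 (0.985), Nupl1 (0.984) and Lamtor5 (0.979), a subunit of the Ragulator complex. Control replicates 1 and 2 were the lowest libraries in Gm10075, Nupl1 and Lamtor5 alike. These genes were picked for the highest r with a gene low in those libraries, so this order follows from the choice. With only 6 libraries, the highest r among many genes can be high without any link between them. No shared split is therefore read from these values. Lamtor5 spanned only 79.7 to 87.4 FPKM, so the likeness is in which libraries were low and not in the size of the split. Among the 4 genes themselves, r was 0.872 between Ccnd2 and Gm43126, 0.584 between Gm43126 and E230016M11Rik, 0.516 between Ccnd2 and E230016M11Rik, 0.449 between Gm43126 and Cdc45, 0.119 between Ccnd2 and Cdc45 and -0.154 between Cdc45 and E230016M11Rik.

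The other cell cycle genes were counted by 5 lists: control of G1 to S passage, replication origins and helicase, G2 and mitosis, the Gadd45 family with p53 targets, and cell cycle exit in muscle. The lists hold 162 genes, of which 4 were analysed and all 4 tested, Ccnd2 and Cdc45 among them. None was called higher and 1 was called lower, beside 20 and 28 of the 1737 genes tested. The lists of G2 and mitosis and of the Gadd45 family with p53 targets had no analysed gene, so nothing was measured for them here. Cdkn2d, an inhibitor of CDK4 and CDK6 and so an opponent of D-type cyclins, was at 7.49, 7.06 and 6.80 FPKM in control and 5.74, 5.88 and 5.99 in OI. It had no overlap between groups but did not pass, with a log2 difference of -0.24 (SE 0.07) and an adjusted p of 0.163 by limma.

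H1f0, a replication-independent linker histone that accumulates in cells that have stopped dividing, fell with OI. Its FPKM was 146, 148 and 155 in control and 111, 116 and 112 in OI, with no overlap. The log2 difference was -0.40 (SE 0.06), with an adjusted p of 0.0268 by limma. That call was lost when any single library was left out (adjusted p by limma 0.0676 to 0.125), and under rescaling to a common sum the difference was 0.18, or -0.18 relative to the median of all genes, which that scaling moved to 0.36. Ccnd2 and H1f0 thus had differences of opposite sign in the values as deposited, of which only that of H1f0 passed.

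Genes that share exonic bases with a gene of the 5 lists were counted too, 24 in all. Of these 6 were tested, Gm43126 and E230016M11Rik among them, and none passed in either direction, beside 2.76% of all genes tested. The median log2 difference of the 6 was -0.06, beside -0.02 over all genes tested. The other 4 had log2 differences below 0, each with overlapping groups: AL589670.3 over H1f0 by -0.17, 1700113A16Rik over Mef2d by -0.14, Gm15421 over Orc5 by -0.08 and Gm45464 over Rbl2 by -0.03. Differences below 0 were also found in 963 of all 1737 genes tested. Under rescaling to a common sum, and relative to the median of all genes there, Gm15421 was at 0.0076 and the other 3 stayed below 0. AL589670.3, with 7.6% of its exonic bases shared with H1f0, did not pass, with an adjusted p of 0.561 by limma. The shared part was 48.5% of 1700113A16Rik, 18.4% of Gm15421 and 31.4% of Gm45464.

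**Figure D5:**
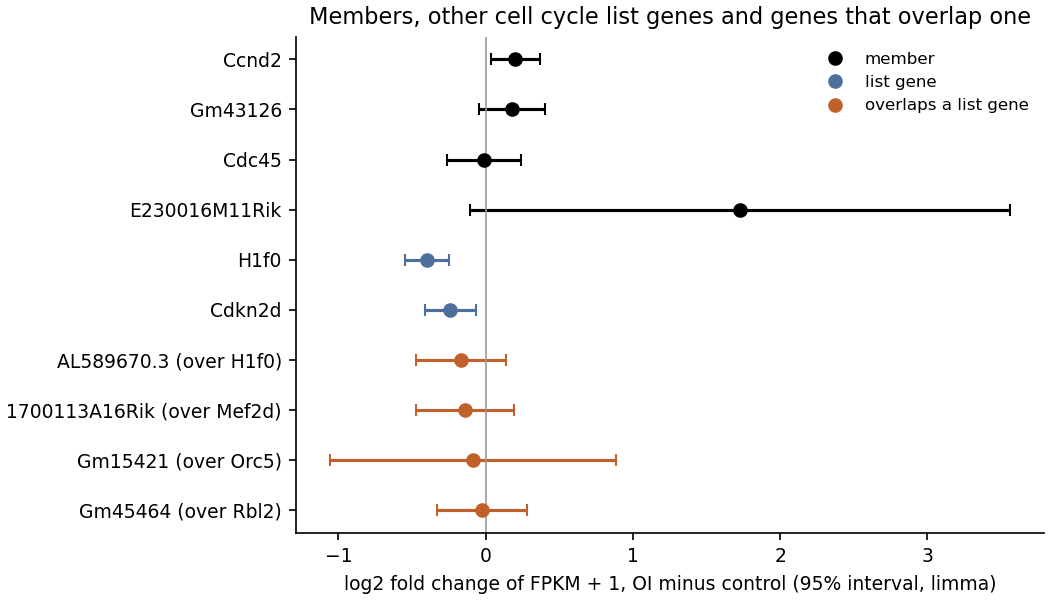
Difference on the log2(FPKM + 1) scale, OI minus control, with 95% intervals from limma (3 libraries per group), for the 4 genes (black), the other tested cell cycle list genes (blue) and other tested genes that share exonic bases with a list gene (orange). E230016M11Rik has the widest interval of those plotted, -0.11 to 3.56, and of the genes plotted only H1f0 passed the adjusted threshold.

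A wider count came from the annotation columns of the authors' tables and was added after the data were seen. Of 225 analysed genes with a GO or KEGG cell cycle term there, 25 were tested, Ccnd2 and Cdc45 among them. No gene of these passed in either direction by limma, beside 2.76% of all genes tested, a share too small to expect a call among 25. An unadjusted p under 0.05 was found in 6 of 25 beside 17.8% of all genes tested, and 9 of 25 had no overlap between groups beside 23.6%. Of the 25, 10 were protein-coding, 12 were pseudogenes and 3 were of other kinds. The median log2 difference of the 25 was -0.01, with 11 higher and 14 lower in OI, beside 774 higher and 963 lower of all genes tested. Over the 10 protein-coding genes the median was 0.07, with 5 higher and 5 lower, beside 161 and 149 of the 310 protein-coding genes tested. The lowest p was that of Eid1, an inhibitor of differentiation that binds the retinoblastoma protein, with 17.5, 17.4 and 16.4 FPKM in control and 12.6, 13.9 and 13.6 in OI and an adjusted p of 0.0884. Lin52, a subunit of the DREAM complex that represses cell cycle genes in resting cells, was at 3.14, 4.18 and 5.11 FPKM in control and 4.82, 5.18 and 5.25 in OI, with an adjusted p of 0.427 by limma. Eid1 and Lin52 were named after their values were seen.

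Markers of cell types were sparse among the genes analysed. Of 38 skeletal muscle markers 1 was analysed, Tnnc1, the troponin C of slow and cardiac muscle, which fell from 126 ± 15.1 FPKM in control to 23.2 ± 1.39 in OI (SD, n = 3 each), with an adjusted p of 0.000188 by limma and a log2 difference of -2.39. Under rescaling to a common sum the adjusted p was 0.624, with a log2 difference of -1.82, or -2.19 relative to the median of all genes. Of 35 markers of fibroblasts, adipocytes, endothelial cells, leukocytes and epithelial cells 2 were analysed, Itgam, at 0 in all libraries, and Cdh1, at 0 in all but control replicate 2 with 0.0143 FPKM. Ccnd2 did not pass, and the part of Tnnc1 in the Ccnd2 values was not tested. In bulk RNA, fewer cells of a type and less RNA per cell cannot be told apart.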

How the data were processed

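RNA-seq of C2C12 cells was compared between control and OI, 3 libraries each. The submitters' processing notes name mm10, StringTie 1.3.3b, HISAT2 2.1.0 and cutadapt 2.7. The authors deposited FPKM per gene, 1 table per library, with gene positions and lengths. Settings of the aligner and counter, strand included: not given in the sources used here. Of 27943 genes in the tables, 1 row with broken annotation was left out.

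Library sizes were recovered from genes of 1 exon, in which the product of FPKM and gene length moved in whole steps (100% within 0.01 of a whole number). Over all genes 85.0% to 86.4% were whole, so read numbers of other genes are approximate. Exon overlaps came from GENCODE M21.

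Values were tested as log2(FPKM + 1) by limma (version 3.58.1, trend=TRUE, R version 4.3.3), for genes with an FPKM of at least 1 in 3 or more libraries, two-sided, Benjamini-Hochberg over 1737 genes, threshold 0.05, without replicate block. It was tested on simulated data. Fold changes on this scale understate those of low genes. Single genes also had an exact permutation test of mean FPKM. Tables and intervals were made with SciPy 1.17.1 and pandas 2.3.3 in Python 3.11.15, and figures with Matplotlib 3.10.9.

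Named genes were the 4 genes, tested genes of the cell cycle lists, tested genes sharing exonic bases with those, neighbours within 250 kb by mean FPKM, and the 3 most alike genes. The genes and lists were chosen with earlier results of these data known. Alternatives were a filter at 5 FPKM, no filter, pseudocounts of 5 and 0.1, common-sum, quantile and median-of-ratios scaling, trend=FALSE, robust=TRUE, array weights, a replicate block, voom on recovered reads (10 or more in at least 3 libraries), and leaving out each library.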

Additional observations from a re-analysis of the deposited data

How the results depend on the processing

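Ccnd2 and Gm43126 kept their direction and did not pass under any of the 18 alternatives. Their adjusted p by limma ranged from 0.116 to 0.859 and from 0.257 to 0.859. Their log2 differences lay between 0.18 and 0.24 and between 0.13 and 0.25, except under rescaling to a common sum (0.76 and 0.73). That rescaling moved the median of all genes to 0.36, relative to which they were 0.39 and 0.37. In control replicate 1 the sum it divides by includes 70760 FPKM of AY036118, against 691.5 to 2450 elsewhere. Cdc45 changed sign under median-of-ratios scaling (0.0038), quantile normalization (0.0269) and the common sum (0.33, or -0.04 relative to that median). Leaving out each library gave -0.0608 to 0.0723. Its adjusted p by limma stayed between 0.778 and 0.995 under 17 alternatives, and at a filter of 5 FPKM it was not tested. E230016M11Rik ranged from 1.25 to 2.66 over the left-out libraries and passed only without control replicate 3, with 2.66 and an adjusted p of 0.00156. Its log2 difference was 0.78 at a pseudocount of 5, 2.704 at 0.1 and 2.85 with voom, none past the threshold, and under the common sum the adjusted p was 0.0508. Across all genes 48 were called (20 higher, 28 lower), against 14 with no filter, 7 under the common sum (6 higher, 1 lower) and 15 to 27 without a library, where fewer samples were fitted. With the replicate number as a block 17 were called, and the log2 differences of the 4 genes did not move (adjusted p of Ccnd2 0.368). Same-numbered libraries deviated with correlations of 0.0469, 0.138 and -0.084, and differently numbered ones with -0.141 to 0.0781. Whether equal numbers mark a shared batch was not tested. Depth was lowest for E230016M11Rik in control replicates 1 and 2 (about 19 and 26 reads), and Cdc45 had 82 to 150 reads per library.

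The same alternatives were run for 11 other named genes after the data were seen, and 169 of 196 values kept direction and call. Under the common sum H1f0 was 0.18, Cdkn2d 0.24, AL589670.3 0.31, 1700113A16Rik 0.34, Gm15421 0.37, Gm45464 0.33, Tpi-rs11 0.19, Gm9794 0.48 and Eid1 0.20, where all had been below 0. Relative to the median of all genes under that scaling only Gm15421 (0.0076) and Gm9794 (0.11) of these 9 were above 0. Quantile normalization turned Gm45464 (0.0094) and Gm9794 (0.26), array weights Gm15421 (0.0072), and leaving out a library Gm15421 (-0.35 to 0.38) and Gm45464 (-0.0947 to 0.0947). Beside the left-out libraries, H1f0 lost its call with no filter, quantile normalization, trend=FALSE, the block and the common sum (adjusted p by limma 0.0587 to 0.911). Eid1 passed at a filter of 5 FPKM (adjusted p by limma 0.0343). The causes were not tested.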
